A study of Mus musculus with 8 samples.

Results

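Kinesins are motor proteins that turn ATP into movement along microtubules. The members described here are the genes whose symbol begins with Kif or Kifc followed by a digit, and 42 of the 27036 genes in the count table fit that rule. By known function, 14 of them work in the mitotic spindle or in cytokinesis, 15 carry cargo, 7 act in cilia or in signaling, and 5 regulate microtubules or lack a normal motor activity. The remaining gene, *Kif4-ps*, is annotated as a pseudogene of *Kif4* and was left unclassified. The expression of most tested mitotic kinesins was higher in the tumors than in normal prostate.

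The RNA came from 3 normal mouse prostates (WT), 3 prostates with prostatic intraepithelial neoplasia (PIN) and 2 prostate cancers (PCa), and was measured by bulk RNA sequencing. PIN and PCa tissue was taken from hARtg-Osr1Cre mice, written R26 mTmG/hAR:Osr1 Cre/+ in the study. In these animals a floxed human androgen receptor transgene is switched on by Cre, which the Osr1 promoter drives, together with a membrane GFP reporter. The WT controls carried the same reporter and Cre without the transgene according to the legend of the study (R26 mTmG/+:Osr1 Cre/+), and the labels call them only WT controls. The animals had a mixed C57BL/6 and 129S1/SvImJ background, and the ages behind the individual libraries are not given in the sources used here. The study describes the WT mice as matched in sex and age, and PIN lesions appeared at younger ages than PCa. Age may therefore differ along with the lesion where PCa is compared with PIN. The study selected PIN and PCa tissue by microscopy so that most cells were atypical or tumor cells, and no such selection is described for WT. The human transgene was not analysed here.

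Mitotic kinesins organise chromosomes and spindle poles and then help to divide the cell, so their RNA is made mainly in cycling cells, late in the cell cycle. Transport kinesins move vesicles, mitochondria and cilium parts, and most cells that do not divide also use them. Promoters of genes that are active in G2 and mitosis often carry a CHR (cell cycle genes homology region), which the DREAM and MuvB-B-Myb complexes can bind, and CCAAT boxes, which NF-Y can bind.

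Promoter windows from RefSeq (assembly GRCm38.p6, 300 bases each, from 250 before to 50 after the gene start) were matched by symbol for 33 of the 42 members. The letters searched for were TTTGAA and TTCGAA for the CHR and CCAAT for the CCAAT box, each on both strands, and the motifs do not overlap each other in their letters. CHR letters stood in 11 of 13 mitotic windows (84.6%), in 1 of 12 transport windows (8.33%) and in 19.2% of all 32851 windows. CCAAT letters stood in 9 of 13 mitotic windows (69.2%), in 4 of 12 transport windows (33.3%) and in 37.4% of all windows. Both motifs were found in 8 mitotic windows (61.5%), in 0 transport windows and in 7.52% of all windows. Within 50 bases before and 30 after the start, CHR letters were found in 9 of 13 mitotic windows (69.2%) and in 4.6% of all windows, and this narrower stretch was an addition to the planned search. The mitotic members without CHR letters in the window were *Kif18a* and *Kif2b*, and *Kif20a* had no entry in the table. A match describes letters only, and a window without a match says nothing of the factors that bind there.

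The stretches below run 5′ to 3′ along the gene, from 110 bases before to 30 after the RefSeq start, with CHR and CCAAT letters of either strand in capitals. On the other strand the CHR letters TTTGAA read TTCAAA, and a CCAAT box reads ATTGG. The first 7 are those of mitotic kinesins called in PCa against WT whose CHR letters lie close to the start. *Kifc1* and *Kifc5b*, which were tested and not called, also hold CHR letters there and are not printed. *Kif18a* is a mitotic kinesin without these letters, *Kif26b* the atypical kinesin with the largest rise in PCa, and *Kif1c* and *Kif3b* are transport kinesins.
Kif23 (chr9:61946770-61946909, minus strand): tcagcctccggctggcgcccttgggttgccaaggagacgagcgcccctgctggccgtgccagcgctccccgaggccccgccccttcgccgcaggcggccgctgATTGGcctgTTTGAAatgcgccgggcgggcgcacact
Kif11 (chr19:37376272-37376411, plus strand): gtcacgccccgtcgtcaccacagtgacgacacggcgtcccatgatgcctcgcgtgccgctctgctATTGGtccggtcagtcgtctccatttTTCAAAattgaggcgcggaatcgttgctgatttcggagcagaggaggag
Kif22 (chr7:127042391-127042530, minus strand): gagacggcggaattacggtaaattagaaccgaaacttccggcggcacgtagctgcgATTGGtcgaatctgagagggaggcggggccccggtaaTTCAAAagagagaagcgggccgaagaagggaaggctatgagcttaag
Kif18b (chr11:102925095-102925234, minus strand): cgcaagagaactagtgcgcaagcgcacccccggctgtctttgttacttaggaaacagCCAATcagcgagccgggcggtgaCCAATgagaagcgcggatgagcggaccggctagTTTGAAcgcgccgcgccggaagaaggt
Kif4 (chrX:100625955-100626094, plus strand): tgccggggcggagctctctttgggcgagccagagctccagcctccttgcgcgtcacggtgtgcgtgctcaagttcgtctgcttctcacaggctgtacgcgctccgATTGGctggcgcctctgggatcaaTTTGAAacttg
Kif20b (chr19:34922248-34922387, plus strand): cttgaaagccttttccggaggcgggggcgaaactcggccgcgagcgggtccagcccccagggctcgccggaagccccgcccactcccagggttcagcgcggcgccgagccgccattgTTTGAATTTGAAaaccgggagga
Kif15 (chr9:122950971-122951110, plus strand): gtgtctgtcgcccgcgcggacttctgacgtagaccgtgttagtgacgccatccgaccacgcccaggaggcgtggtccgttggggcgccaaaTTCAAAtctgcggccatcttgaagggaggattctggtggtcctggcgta
Kif18a (chr2:109280628-109280767, plus strand): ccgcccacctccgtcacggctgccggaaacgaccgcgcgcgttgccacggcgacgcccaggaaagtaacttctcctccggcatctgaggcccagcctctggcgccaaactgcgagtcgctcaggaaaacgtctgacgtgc
Kif26b (chr1:178529015-178529154, plus strand): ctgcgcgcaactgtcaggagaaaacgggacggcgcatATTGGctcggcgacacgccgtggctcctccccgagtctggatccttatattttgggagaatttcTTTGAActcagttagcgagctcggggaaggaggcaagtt
Kif1c (chr11:70700438-70700577, plus strand): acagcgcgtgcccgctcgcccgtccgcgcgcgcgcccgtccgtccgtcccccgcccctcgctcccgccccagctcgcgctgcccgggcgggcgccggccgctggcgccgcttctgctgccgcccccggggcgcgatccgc
Kif3b (chr2:153291306-153291445, plus strand): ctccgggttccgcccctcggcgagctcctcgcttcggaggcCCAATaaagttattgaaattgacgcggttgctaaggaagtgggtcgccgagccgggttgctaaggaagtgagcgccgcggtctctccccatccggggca
In *Kif20b* the CHR letters stand in tandem, and in *Kif11*, *Kif22* and *Kif15* they lie on the other strand, at similar distances before the start.

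**Figure D1:**
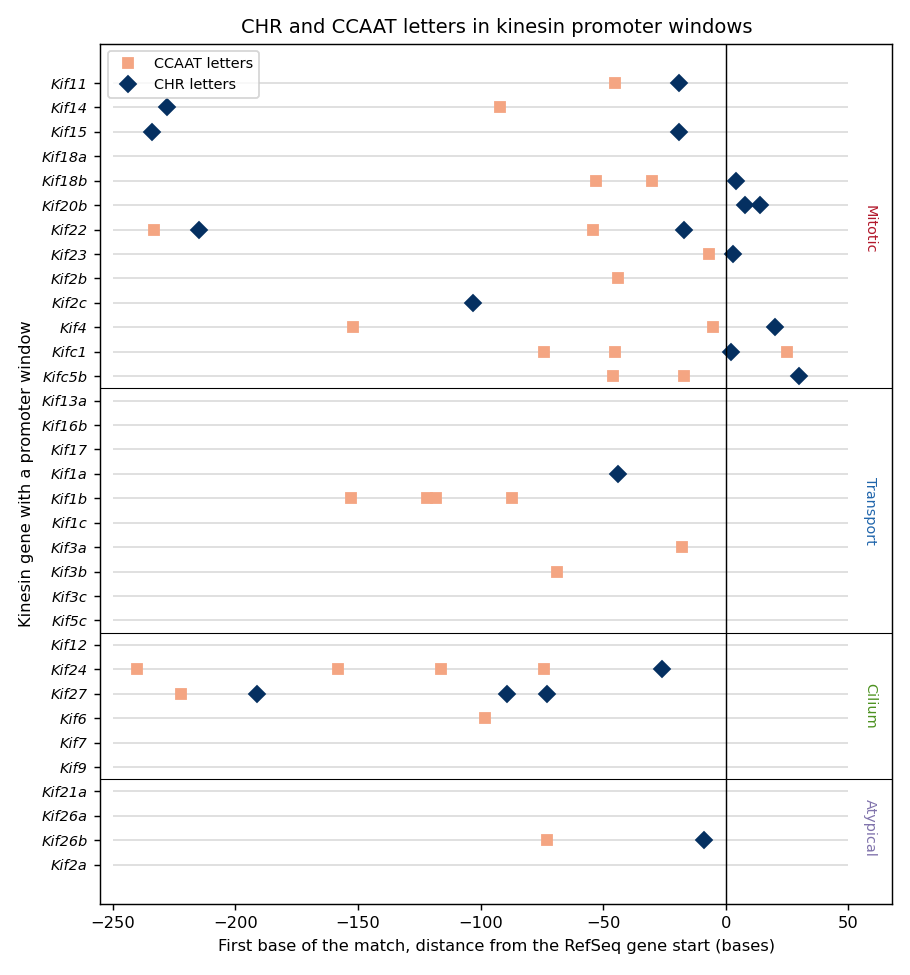
Position of CHR letters (dark diamonds) and CCAAT letters (light squares) in the promoter windows of the kinesins, 1 line per gene, with the distance of the first base of the match from the RefSeq gene start in bases on the x axis; windows of genes with more than 1 listed start share a line. In the mitotic class, 9 of 13 windows hold CHR letters between 50 bases before and 30 after the start, against 1 of 12 in the transport class.

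Total counts were 21751803 to 29730420 per library, and their number limits the precision of members with few counts. Levels are given as CPM (counts scaled to a common, adjusted library size) where libraries are compared. TPM, used where genes are compared, divide counts by the summed exon length and scale each library to the same total, without that adjustment. The replicate numbers are those of the labels, and the p-values measure only the spread between these libraries, which may in part be technical. WT 1 stood apart, with summed seminal vesicle markers (*Svs2*, *Svs3a*, *Svs4*, *Svs5* and *Svs6*) at 14563 CPM against at most 0.0732 in the other WT libraries, and PCa 1 also held 3730. The 5 smooth muscle markers summed to 1911 to 4620 CPM in WT and to 17.9 to 41.2 in PCa, and 5 of 5 fell in PCa against WT, where 4.18% of all tested genes were called lower. The 6 luminal markers were detected in every group, with sums of 9709 to 30719 CPM in WT and 2256 to 3118 in PCa and among these *Pbsn* alone fell in PCa against WT, where it fell by 8.70 on the log2 scale. In bulk tissue, fewer cells of a type and less RNA per cell cannot be told apart. The library numbers in the labels form 3 series (WT 1, WT 2 with WT 3, and all PIN and PCa libraries), and should these be batches, their effect and that of the condition cannot be told apart wherever WT is compared.

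Of the 42 members, 35 had more than 1 CPM in at least 2 libraries and were tested: 13 mitotic, 14 transport, 3 cilium and signaling, and 5 microtubule regulating and atypical kinesins. All 13 tested mitotic kinesins would have passed this filter without the PCa libraries, and *Kif26b* was the only member that passed through PCa alone. *Kif2b*, a testis-enriched microtubule depolymerizing kinesin, and *Kif4-ps* had 0 counts in every library, which allows up to 0.0965 to 0.148 CPM per library by counting error. *Kif6*, *Kif12*, *Kif17*, *Kif19a* and *Kif27* also stayed below the filter.

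In WT prostate the kinesin RNA was mostly that of transport kinesins. *Kif5b*, the widely expressed heavy chain of conventional kinesin, had the highest median level of the family at 190 TPM, and *Kif1c*, a vesicle motor, was next at 90.2 TPM. *Kif5b* stood at 261, 611 and 414 CPM in WT, at 398, 317 and 434 in PIN and at 205 and 398 in PCa. These groups overlapped, with the lowest value in PCa 1 and the highest in WT 2. *Kif1c* was the steadier of the pair, at 204, 191 and 188 CPM in WT, 187, 163 and 197 in PIN and 192 and 188 in PCa. The highest mitotic kinesin in WT was *Kif11*, at rank 14 of the family and 2.81 TPM, and in PCa it stood at rank 9 and 33.5 TPM. Neighbouring ranks are not shown to differ beyond the spread between libraries.

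Summed over the members, mitotic kinesins made up 4.09%, 1.42% and 2.37% of the kinesin TPM in WT 1, 2 and 3. The share was 5.43%, 3.49% and 5.72% in PIN 1, 2 and 3, and 21.0% and 24.2% in PCa 1 and 2. PCa lay above every other library, WT 1 lay between the PIN values, and the means were 2.63% ± 1.36 (SD, n = 3), 4.88% ± 1.21 (SD, n = 3) and 22.6% ± 2.26 (SD, n = 2). The summed transport TPM was 464 to 571 in WT, 492 to 540 in PIN and 494 to 610 in PCa. These sums lack the library size adjustment used for CPM, so they do not show whether transport kinesin RNA was level between the groups. The shares above are ratios within a library and do not depend on that adjustment.

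**Figure D2:**
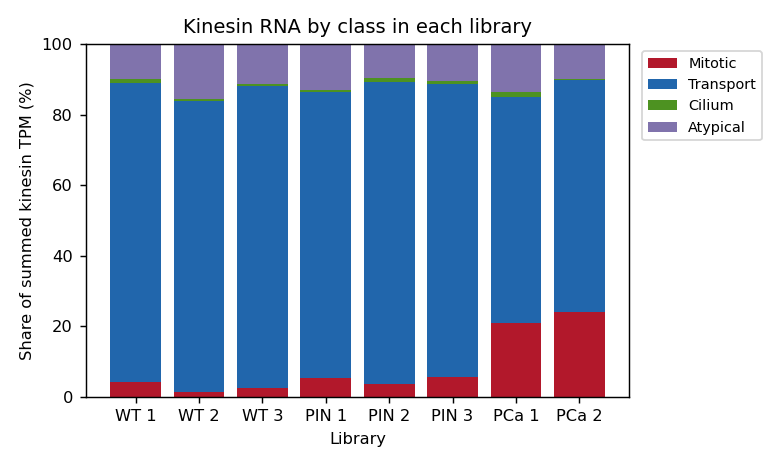
Share of the summed kinesin TPM (y axis, percent) that belongs to each functional class in each of the 8 libraries (x axis), as stacked bars that add to the whole family. The mitotic share was 1.42% to 5.72% in the WT and PIN libraries and 21.0% and 24.2% in PCa.

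The comparison of PCa with WT asks which kinesins differ between tumor and normal tissue. Of 13 tested mitotic kinesins, 11 rose and 0 fell, when a log2 fold change beyond 1 in size and an adjusted p under 0.05 were asked of edgeR's quasi-likelihood F-test, with Benjamini-Hochberg adjustment over all 14034 tested genes. Across these genes 4.35% were called higher and 4.18% lower. The median log2 fold change of the 13 was 3.40, with a range of 1.94 to 4.27, beside a median of 0.01 over all tested genes. In 13 of 13 both PCa values lay above all WT values, an arrangement that 17.7% of the tested genes showed. Without WT 3, 7 mitotic kinesins were called, and in a model of only WT and PCa 4 were (*Kif4*, *Kif11*, *Kif20a* and *Kif23*). Of all tested genes, 1.03% and 0.491% were called higher in these settings. The median ran from 3.03 to 3.79 when any 1 library was left out.

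The motors of the central spindle and of cytokinesis were among those that rose. *Kif23* (mm9 chr9:61765087-61794606), a motor subunit of centralspindlin, had 2.37, 1.27 and 1.10 CPM in WT, 4.32, 1.38 and 4.56 in PIN and 27.4 and 31.3 in PCa. Both tumors were far above all other libraries, and PIN 2 lay within the WT range. Its log2 fold change in PCa against WT was 4.22 (SE 0.59, edgeR adjusted p = 0.0101), an 18.6-fold difference. *Kif14*, which works with citron kinase in abscission, had 0.89, 0.0453 and 0.842 CPM in WT, 2.02, 0.758 and 2.37 in PIN and 9.36 and 13.6 in PCa. WT 2 was by far its lowest library, and PIN 2 again fell among the WT values. It rose by 4.26 on the log2 scale (SE 0.98, edgeR adjusted p = 0.0388). The call was lost in 8 of 15 alternatives, among them those without WT 1, without WT 3, without any 1 PIN library and without PCa 2, and the highest adjusted p in edgeR or another tool was 0.121. *Kif20a*, which brings the chromosomal passenger complex to the midzone, rose by 2.99, from 2.78 to 4.004 CPM in WT to 21.8 and 30.7 in PCa. *Kif20b*, needed to complete cytokinesis, rose by 3.01.

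The chromosome arm motors rose as well. *Kif4* (mm9 chrX:97821076-97922553), a chromokinesin that also limits microtubule growth at the midzone, had 1.53, 1.22 and 1.21 CPM in WT, 2.95, 1.48 and 3.35 in PIN and 14.5 and 19.1 in PCa. The tumors stood above all other libraries, and PIN 1 and PIN 3 stood above WT. Its log2 fold change was 3.67 (SE 0.44, edgeR adjusted p = 0.00773), and it was called in 15 of 15 alternatives. *Kif22*, the other chromokinesin, had 1.98, 0.453 and 1.17 CPM in WT, 1.69, 1.10 and 2.64 in PIN and 12.6 and 13.1 in PCa. WT and PIN overlapped, and the PCa libraries were nearly equal. *Kif22* rose by 3.41 (SE 0.65, edgeR adjusted p = 0.0233).

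*Kif18b*, which shortens astral microtubules, had 0.643, 0.227 and 0.439 CPM in WT, 1.26, 0.482 and 1.88 in PIN and 9.14 and 7.82 in PCa. It was the mitotic kinesin with the largest log2 fold change, at 4.27 (SE 0.70, edgeR adjusted p = 0.0145), and the tumors were again separate from the other libraries. *Kif2c*, a depolymerase that corrects faulty attachments of chromosomes, had 1.29, 0.816 and 0.549 CPM in WT, 2.63, 1.55 and 2.22 in PIN and 8.69 and 12.5 in PCa. For *Kif2c* the 3 groups did not overlap, with PIN between WT and PCa. The log2 fold change in PCa against WT was 3.58 (SE 0.50, edgeR adjusted p = 0.0103). *Kif18a*, which dampens chromosome movements at the metaphase plate, rose by 3.04 from 0.498 to 1.28 CPM in WT to 6.66 and 8.64 in PCa.

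The motors that push the spindle poles apart rose by similar amounts. *Kif11*, which slides antiparallel microtubules and is the target of monastrol, had 4.45, 3.31 and 3.99 CPM in WT, 8.93, 4.44 and 8.55 in PIN and 31.6 and 51.0 in PCa. PIN 2 was just below the highest WT library, and both tumors were above all others. Its log2 fold change was 3.40 (SE 0.39, edgeR adjusted p = 0.00706), a 10.5-fold difference. Over the alternatives it ran from 3.03 to 3.71 and was called in each of them. *Kif15*, which can stand in for *Kif11*, rose by 3.29 from 0.725 to 2.62 CPM in WT to 14.9 and 23.0 in PCa.

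The minus-end directed motors were the mitotic members not called. *Kifc1*, which focuses spindle poles and clusters extra centrosomes, had 4.40, 0.363 and 0.512 CPM in WT, 1.12, 0.895 and 1.77 in PIN and 6.56 and 7.27 in PCa. WT 1 was above the other WT and all PIN libraries but below both tumors. Its log2 fold change was 1.98 (SE 0.99, edgeR adjusted p = 0.243), and without WT 1 it was 3.97 with an edgeR adjusted p of 0.0279. *Kifc5b*, a close relative of *Kifc1*, had 1.09, 0.0453 and 0.842 CPM in WT, 1.04, 0.792 and 1.05 in PIN and 2.19 and 2.88 in PCa. Its tumors were highest and WT 2 lowest, with a log2 fold change of 1.94 (SE 0.94, edgeR adjusted p = 0.227). The transcripts of *Kifc1* and *Kifc5b* share 613 stretches of 100 bases, which is 24.1% of those of *Kifc1* and 19.0% of those of *Kifc5b*, so the reads may be split between them and both values are uncertain. In other mitotic members, exons overlap a gene on the opposite strand over 32.3% of the length of *Kif20a* (*Cdc23*) and 15.1% of that of *Kif4* (*Pdzd11*), and whether the counting used strand is not given in the sources used here.

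**Figure D3:**
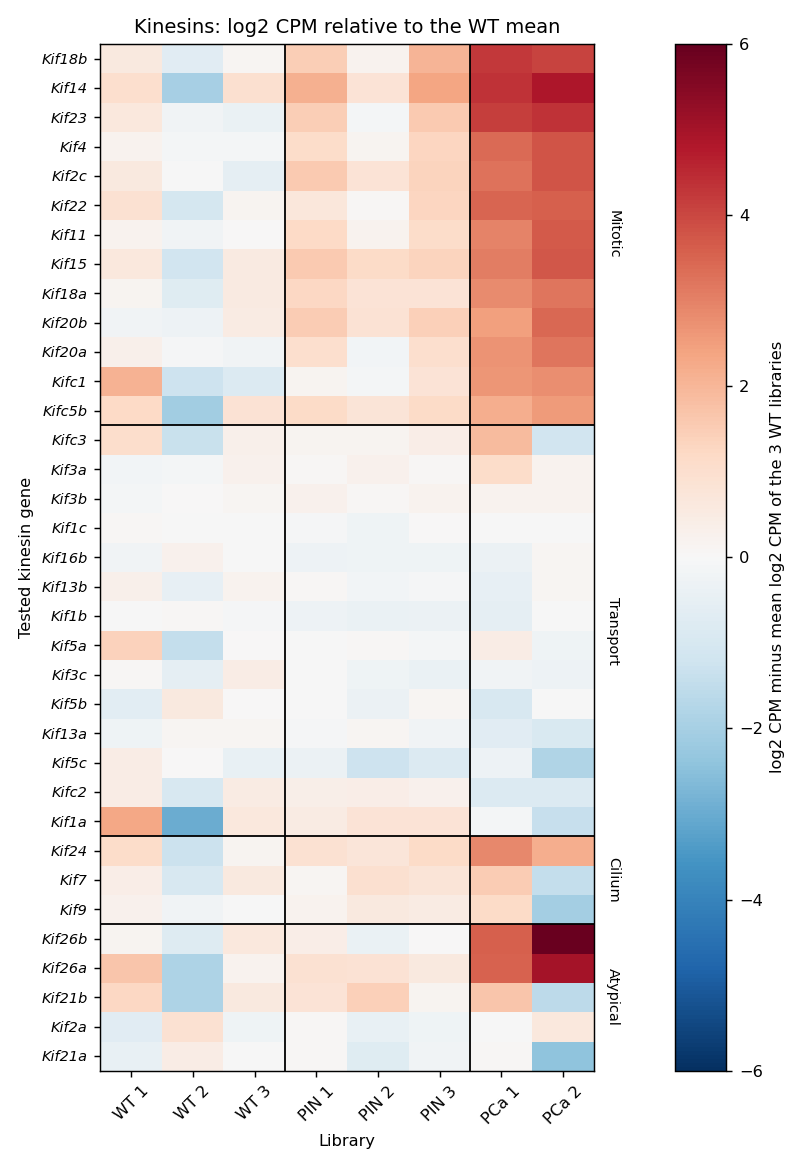
Log2 CPM of the 35 tested kinesins (rows, grouped by class and ordered by the fold change in PCa against WT) in the 8 libraries (columns), each as the difference from the mean of the 3 WT libraries. The mitotic rows are red in both PCa libraries, with medians of 3.09 and 3.69, while the transport rows have medians of -0.26 and -0.16 and range from -1.82 to 1.89 there.

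The mitotic kinesins were high in both tumors. The median log2 difference of the 13 mitotic kinesins to the mean WT level reached 3.09 for PCa 1 and 3.69 for PCa 2, and 13 of 13 differed by less than 2-fold between the tumors. PCa 2 had the higher value in 12 of 13, with *Kif18b* as the exception. Of the 22 tested kinesins outside the mitotic class, 13 differed by less than 2-fold between the tumors and 9 by more. These counts were not made over all tested genes, so they do not show whether such agreement is unusual.

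Genes that work with the mitotic kinesins are given from a fixed list. Of 14 partners, 13 rose in PCa against WT, where 4.35% of all tested genes were called higher, and the median log2 fold change of the list reached 3.48. *Cenpe*, a kinetochore kinesin whose symbol falls outside the rule, rose by 3.88 from 1.81 to 2.27 CPM in WT to 28.3 and 32.4 in PCa. *Prc1*, which bundles the midzone microtubules that *Kif4* acts on, rose by 3.55. *Aurka*, a kinase of the spindle poles, had the largest rise at 5.73, with 142 CPM in PCa 1 and 11.5 in PCa 2 against at most 1.68 in WT. *Incenp*, a scaffold of the passenger complex, had the smallest rise at 2.36, and *Numa1*, a spindle pole protein that is abundant outside mitosis too, was not called, with a log2 fold change of -0.04. The 5 proliferation markers (*Mki67*, *Top2a*, *Pcna*, *Mcm2* and *Ccnb1*) summed to 85.0 to 93.8 CPM in WT and 445 to 575 in PCa, and 4 of 5 rose, beside the same 4.35% of all tested genes. *Mki67* rose by 3.85, and *Pcna* was not called. Their part in the values of the kinesins was not tested.

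Against PIN, the tumors differed in the same direction, with the PCa libraries shared between both comparisons. Of 13 tested mitotic kinesins, 8 rose and 0 fell in PCa against PIN, where 2.55% of all tested genes were called higher and 3.17% lower, and the median log2 fold change was 2.45. In 13 of 13 the PCa values lay above all PIN values, as in 21.1% of all tested genes. The largest difference was that of *Kif23* at 3.10 (SE 0.56, edgeR adjusted p = 0.028), and the next that of *Kif22* at 2.82 (SE 0.63, edgeR adjusted p = 0.0455). *Kif11* rose by 2.499 (SE 0.38, edgeR adjusted p = 0.0168). *Kif14*, *Kif15*, *Kif20b*, *Kifc1* and *Kifc5b* were not called, with log2 fold changes of 1.39 to 2.74. Without PIN 1, without PIN 2 or without PIN 3, 0 mitotic kinesins were called. Of all tested genes, 0.265%, 0.137% and 0.05% were called higher in these settings. In a model of only PCa and PIN, *Kif15* was the only mitotic kinesin called, and it is not among the 8. In that model 1.14% of all tested genes were called higher and 1.67% lower. Without WT 3 the count was 2 and without PCa 2 it was 3, where 0.757% and 3.18% of all tested genes were called higher, and the median stayed between 2.13 and 2.63 when any 1 library was left out.

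The comparison of PIN with WT asks whether kinesins already differ in the lesion that precedes the tumor. In edgeR's quasi-likelihood F-test (Benjamini-Hochberg adjusted), 0 of 13 tested mitotic kinesins were called, as were 0% of all genes. DESeq2 and limma also called 0 kinesins, while DESeq2 called 35 of all genes higher and 4 lower. At an unadjusted p under 0.05, 6 of the 13 were higher in PIN and 0 lower, where 1.92% of all tested genes were higher and 1.59% lower. The log2 fold change was above 0 for 12 of 13, against 48% of all tested genes, and the median was 0.97. The groups did not overlap for 4 of 13 (*Kif2c*, *Kif15*, *Kif18a* and *Kif20b*), an arrangement found for 6.48% of all tested genes.

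The smallest unadjusted p-values belonged to *Kif20b*, *Kif2c* and *Kif11*. *Kif20b* had 2.18, 2.08 and 3.66 CPM in WT, 7.60, 4.68 and 7.12 in PIN and 14.5 and 28.3 in PCa. The 3 groups followed each other without overlap, and the log2 fold change in PIN against WT was 1.29 (SE 0.40, edgeR adjusted p = 1). That of *Kif2c* was 1.27 (SE 0.45) and that of *Kif11* was 0.90 (SE 0.34), each with an edgeR adjusted p of 1. An adjusted p that misses the threshold does not show that the groups are alike.

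The PIN libraries were uneven. The median difference of the mitotic kinesins from the WT mean was 1.23 in PIN 1, 0.21 in PIN 2 and 1.30 in PIN 3 on the log2 scale. PIN 2 was the lowest PIN library for 12 of 13 of them, and WT 2 was the lowest WT library for 9 of 13, with a median of -0.67. The summed proliferation markers were also lowest in PIN 2, at 83.3 CPM against 133 and 139, and *Mki67* stood at 49.6, 19.5 and 43.0 CPM in PIN 1, 2 and 3. *Pcna* did not follow, at 20.9, 22.7 and 22.1 CPM. PIN 2 also had the highest leukocyte markers in PIN, with a sum of 42.1 CPM against 12.7 and 16.0. The part of these markers in the kinesin values was not tested.

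**Figure D4:**
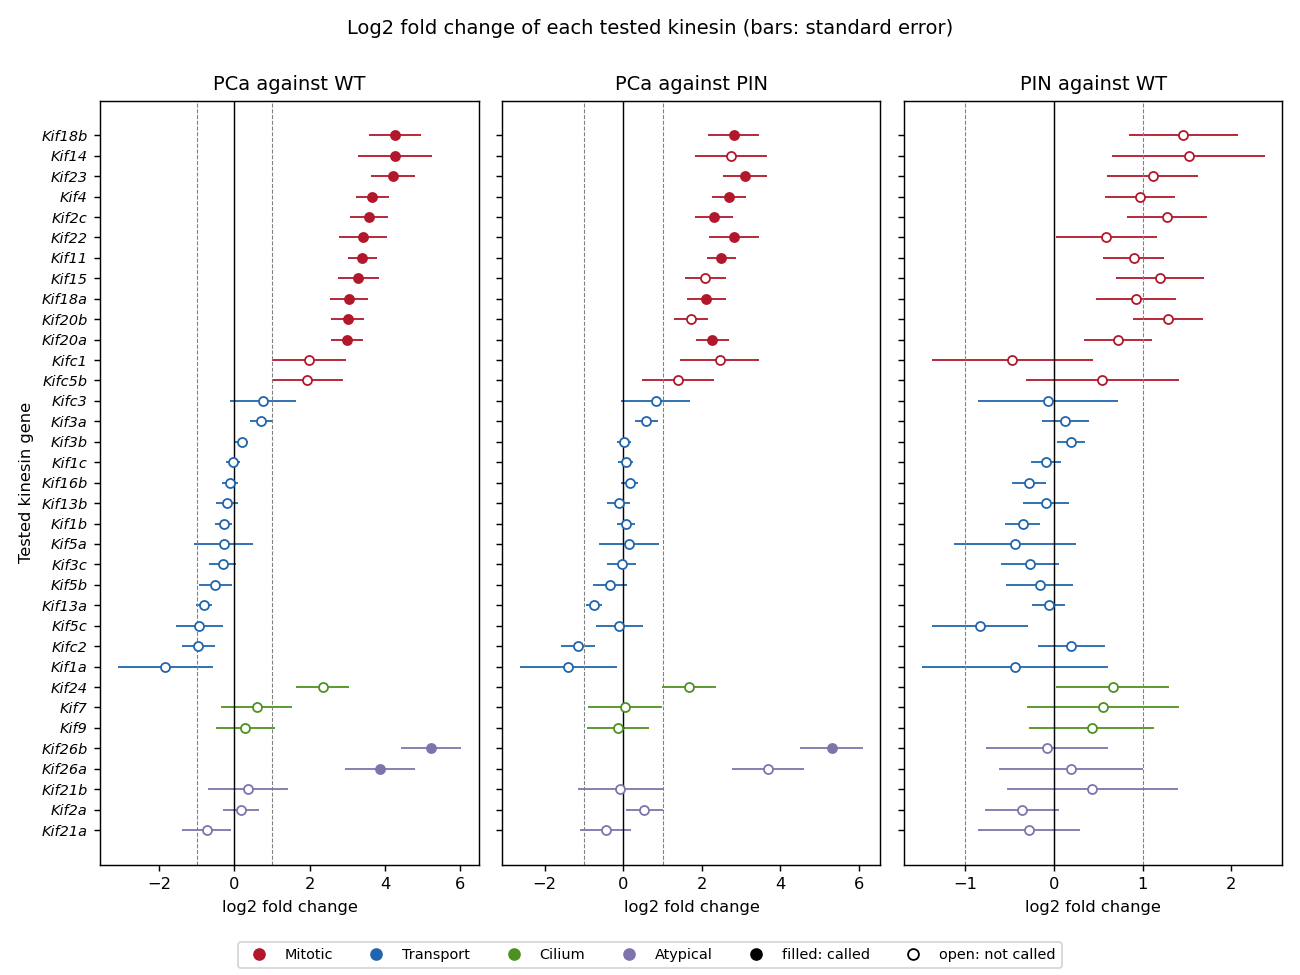
Log2 fold change (x axis) with its standard error (bars) of each tested kinesin in PCa against WT, PCa against PIN and PIN against WT, with classes in color, called genes filled and the limits at -1 and 1 dashed. Filled symbols are 11 mitotic and 2 atypical kinesins in the first panel, 8 and 1 in the second, and 0 in the third.

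Transport kinesins were not called in any comparison, where few of all genes were called. In PCa against WT 0 of 14 tested transport kinesins passed in edgeR's quasi-likelihood F-test (Benjamini-Hochberg adjusted), and 0 passed by DESeq2 or limma. Over all tested genes edgeR called 4.35% higher and 4.18% lower, limma 4.18% and 5.24%, and DESeq2 9.34% and 8.38%. For 14 genes a count of 0 is near the background in edgeR, and it is no result about the class with any of the tools. At an unadjusted p under 0.05, 1 was higher (*Kif3a*) and 1 lower (*Kif13a*), where 13.9% and 13.7% of all tested genes were. The median log2 fold change was -0.28 in PCa against WT, -0.02 in PCa against PIN and -0.13 in PIN against WT. The counts were 0 in the other comparisons too, and at an unadjusted p under 0.05 they were 2 lower in PCa against PIN (all tested genes 11.2%) and 0 in PIN against WT. *Kif13a*, an endosome motor, came closest, with 74.1, 96.8 and 95.2 CPM in WT, 85.1, 94.4 and 75.6 in PIN and 55.0 and 46.3 in PCa. Both tumors lay below all other libraries, and the log2 fold change was -0.81 (SE 0.21, edgeR adjusted p = 0.0561).

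*Kif1a*, which carries synaptic vesicle precursors, had 9.89, 0.181 and 3.00 CPM in WT, 2.74, 3.48 and 3.39 in PIN and 1.74 and 0.686 in PCa. WT 1 was highest and WT 2 lowest, so that WT spanned all other libraries, and the log2 fold change in PCa against WT was -1.84 (SE 1.26, edgeR adjusted p = 0.391). Without 1 library at a time it ran from -2.65 to -0.40. *Kif5c*, a heavy chain of conventional kinesin in neurons, had 4.50, 3.40 and 2.42 CPM in WT, 2.56, 1.38 and 1.85 in PIN and 2.70 and 0.891 in PCa. The highest value was again in WT 1 and the groups overlapped, with a log2 fold change of -0.93 (SE 0.62, edgeR adjusted p = 0.374) that ran from -1.93 to -0.33 without 1 library at a time. *Kif5a*, another neuronal heavy chain, was also highest in WT 1, at 5.44 CPM against 0.725 to 2.83 elsewhere, and its log2 fold change of -0.29 was near the median of the class. The neuron and neuroendocrine markers summed to 21.8 CPM in WT 1, 1.68 and 3.15 in the other WT libraries, 2.45 to 5.09 in PIN and 1.89 to 3.31 in PCa. *Nefl* was at 4.80 CPM in WT 1 and at 0 in WT 2 and WT 3. The part of these markers in the values of *Kif1a*, *Kif5a* and *Kif5c* was not tested.

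Values of the minus-end directed transport motors depended on single libraries. *Kifc2* had 17.2, 6.43 and 17.6 CPM in WT, 15.9, 16.3 and 14.99 in PIN and 7.11 and 6.99 in PCa. The tumors were below PIN and below WT 1 and WT 3, but WT 2 was lower still. The log2 fold change in PCa against WT was -0.96 (SE 0.44, edgeR adjusted p = 0.201), and without WT 2 it was -1.30 with an edgeR adjusted p of 0.0246. *Kifc3*, an apical transport motor of epithelia, had 17.2, 3.17 and 10.1 CPM in WT, 9.18, 9.13 and 10.7 in PIN, 30.5 in PCa 1 and 3.67 in PCa 2. PCa 1 was the highest library, and PCa 2 lay within the WT range.

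The subunits of heterotrimeric kinesin, which builds cilia, included a value found in 1 tumor alone. *Kif3a* had 28.5 to 38.0 CPM in WT, 33.5 to 37.5 in PIN, 68.3 in PCa 1 and 36.2 in PCa 2. It was called in PCa against WT when PCa 2 was left out, where the lone tumor is assumed to vary like the other groups. Its partner *Kif3b* stood at 37.9 to 44.0 CPM in WT and at 47.0 and 47.3 in PCa, and *Kifap3*, the third subunit, had a log2 fold change of -0.23. Of 11 transport kinesin partners listed, 9 were found in the table and 0 were called in any comparison. At an unadjusted p under 0.05, 1 was higher and 1 lower in PCa against WT in edgeR, where 13.9% and 13.7% of all tested genes were. The highest was *Klc3*, a kinesin light chain, at 1.99 (SE 0.52, edgeR adjusted p = 0.0567), followed by *Klc1* at 0.20. *Mapk8ip1* and *Mapk8ip3*, adaptors of conventional kinesin, were lowest at -0.60 and -0.57. Among the 13 subunits of cytoplasmic dynein and dynactin, the opposing motor, 0 were called in PCa against WT, and their median log2 fold change was 0.08. At an unadjusted p under 0.05 in edgeR, 0 of them were higher and 1 lower, beside the same 13.9% and 13.7% of all tested genes. With 4.35% of all tested genes called higher and 4.18% lower, counts of 0 of 9 and 0 of 13 are near the background and are no result about these lists.

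Outside the mitotic and transport classes, *Kif26a* and *Kif26b* rose. These are atypical kinesins that bind microtubules without normal ATPase activity. *Kif26b* (mm9 chr1:180459256-180862986), known for its role in kidney development and cell polarity, had 0.593, 0.272 and 0.842 CPM in WT, 0.720, 0.379 and 0.527 in PIN and 6.98 and 36.2 in PCa. WT and PIN overlapped, and both tumors were higher, PCa 2 by far. On the log2 scale it rose by 5.23 in PCa against WT (SE 0.80, edgeR adjusted p = 0.0124) and by 5.31 in PCa against PIN (SE 0.80, edgeR adjusted p = 0.0168), and its log2 fold change in PIN against WT was -0.08. It passed the filter on low counts only through the PCa libraries, where it is high, so its test is not independent of that filter. The call in PCa against PIN was lost in 4 of 13 alternatives, among them those without any 1 of the PIN libraries, and that in PCa against WT in 2 of 13, among them a model of only those groups. Its exons overlap *Gm16564* on the opposite strand over 11.6% of their length.

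*Kif26a*, which restrains Ret signaling in gut neurons, had 3.41, 0.227 and 1.21 CPM in WT, 1.98, 1.96 and 1.58 in PIN and 12.7 and 34.5 in PCa. As for *Kif26b*, PCa 2 was highest, PCa 1 next and WT 2 lowest, and WT was wider than PIN. It rose by 3.87 in PCa against WT (SE 0.93, edgeR adjusted p = 0.0434). In PCa against PIN the log2 fold change was 3.68 (SE 0.92, edgeR adjusted p = 0.0596), which was not called. The call in PCa against WT was lost in 8 of 15 alternatives, among them those without WT 3, without any 1 of the PIN libraries and without PCa 2. *Kif26b* could not be tested without PCa 1 or without PCa 2, since it then fell below the filter. The other tested members of the class were not called, and *Kif21a*, which damps microtubule growth at the cell cortex, had 19.4 CPM in PCa 2 against 64.2 to 145 in the other libraries. *Kif21a* was called lower in PCa against WT when PCa 1 was left out, where the lone PCa 2 is assumed to vary like the other groups.

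**Figure D5:**
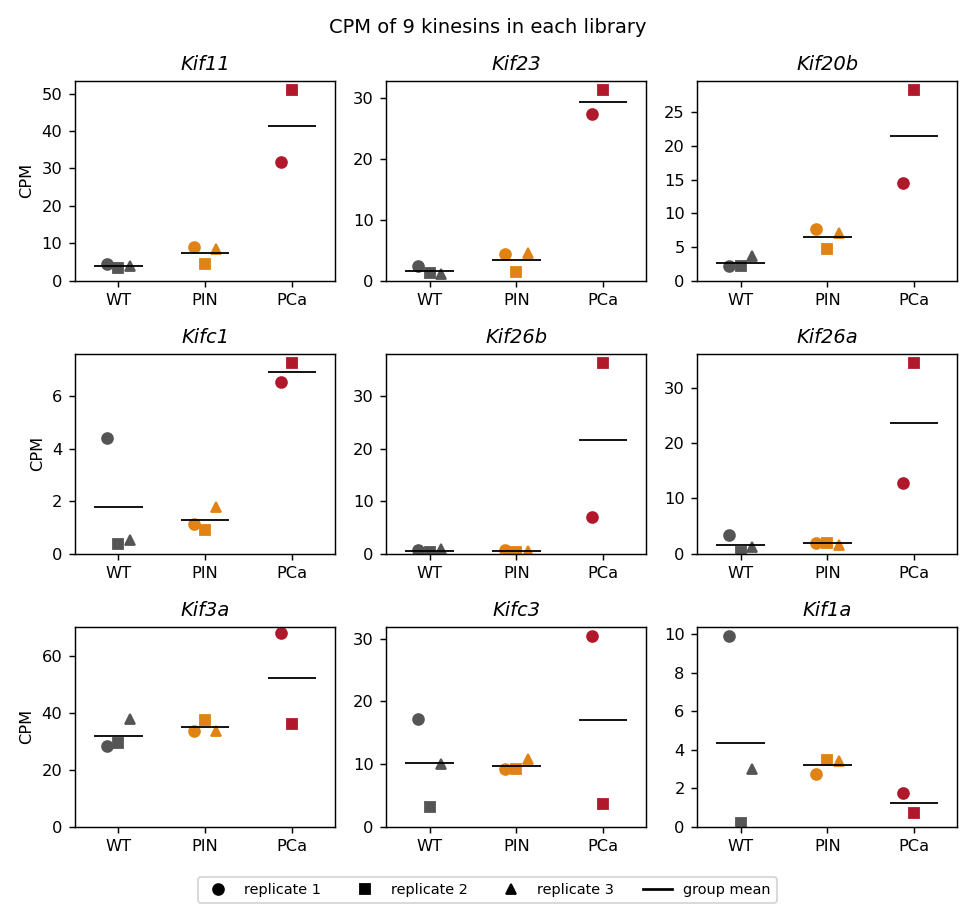
CPM (y axis, each panel with its own linear scale from 0) of 9 kinesins in each library, with the marker shape giving the replicate number and the line the group mean of WT and PIN (n = 3) and PCa (n = 2). *Kif11* and *Kif23* were high in both tumors, *Kif26a* and *Kif26b* were highest in PCa 2, *Kif3a* and *Kifc3* in PCa 1, and *Kifc1* and *Kif1a* show the high value of WT 1.

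Cilium and signaling kinesins were low in this tissue, and 3 of 7 were tested. *Kif24*, which remodels centriolar microtubules and holds back cilium growth in cycling cells, had 1.98, 0.317 and 0.988 CPM in WT, 1.69, 1.52 and 2.00 in PIN and 6.92 and 4.22 in PCa. Both tumors were above all other libraries. In PCa against WT its log2 fold change was 2.35 (SE 0.70, edgeR adjusted p = 0.0785), which missed the threshold, while DESeq2 gave an adjusted p of 0.00991. Its promoter window held TTCGAA 26 bases before the start.

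Some cilium kinesins were high in PCa 1 and low in PCa 2. *Kif7*, a regulator of Hedgehog signaling at the cilium tip, had 1.04, 0.363 and 1.21 CPM in WT, 0.864, 1.58 and 1.39 in PIN, 2.38 in PCa 1 and 0.240 in PCa 2. *Kif9*, a motor of motile cilia, had 3.81, 2.72 and 3.11 CPM in WT, 3.64, 4.86 and 4.44 in PIN, 7.14 in PCa 1 and 0.720 in PCa 2. For both genes PCa 1 lay above and PCa 2 below all WT values. The exons of *Kif7* overlap genes on the opposite strand over 18.2% of their length. The log2 fold change in PCa against WT was 0.59 (SE 0.94, edgeR adjusted p = 0.731) for *Kif7* and 0.29 (SE 0.79, edgeR adjusted p = 0.843) for *Kif9*. Without PCa 1, *Kif9* was called lower at -2.14 with an edgeR adjusted p of 0.0352, where PCa 2 alone stands for the tumors and is assumed to vary like the other groups. *Kif7* ran from -1.83 to 1.46 when 1 library was left out, so its direction turned as well. *Kif17*, a transport kinesin of cilia and dendrites that was not tested, was at 4.96 CPM in PCa 1 and at 0 in PCa 2, with no more than 0.494 in the WT and PIN libraries. Of 5 ciliated cell markers listed, 3 were found in the count table, and they summed to 4.12 CPM in PCa 1 and 0.514 in PCa 2. *Foxj1* was at 2.03 CPM in PCa 1 and at most 0.272 in every other library. *Rsph1* was at 2.06 CPM in PCa 1 and 1.28 in PIN 3, and *Tekt1* had 1 count in PCa 1 and 0 elsewhere. Leukocyte markers summed to 72.2 CPM in PCa 1 and 8.91 in PCa 2. Basal epithelial markers (*Krt5*, *Krt14* and *Trp63*) summed to 237 CPM in PCa 1 and 26.3 in PCa 2, and seminal vesicle markers to 3730 and 285. The part of these markers was not tested.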

How the data were processed

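RNA from 3 WT, 3 PIN and 2 PCa mouse prostate samples, depleted of ribosomal RNA, was sequenced from both fragment ends. Per the labels and the study's methods, the authors trimmed reads with cutadapt 1.9.1, aligned them to mm9 with HISAT2 2.1.0 and counted them with HTSeq 0.6.1, and the deposited values are raw counts per gene beside each gene's summed exon length. Members and lists were chosen with earlier results of these data known. The tests on the counts used edgeR 4.0.16 under R 4.3.3 (quasi-likelihood F-test, trimmed mean of M-values, more than 1 CPM in at least 2 libraries, Benjamini-Hochberg adjustment over 14034 genes). All 8 libraries entered a model with 3 groups and 5 residual degrees of freedom, in which the common biological coefficient of variation was 0.489. The standard error was the fold change divided by the square root of F. TPM were computed from counts and exon length. The steps were tested on simulated data with less spread between libraries than here, and with changes only in genes above a count limit. That test does not show how many true changes are found or missed in these data.

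Values in every library are given for the 6 called mitotic kinesins of largest change in PCa against WT, the mitotic kinesins not called, the 3 highest and 3 lowest and all called other kinesins, the 3 smallest p-values in PIN against WT, members whose PCa values lie on either side of WT, and the 2 highest TPM in WT. *Kif3a*, *Kif5a*, *Kif13a*, *Kif17*, *Kif21a* and *Kifc3* were added after their values were seen. Alternatives were DESeq2 1.42.0, limma-trend 3.58.1, upper-quartile factors, filterByExpr or no filter, no fold change limit, a model of the compared groups alone, a replicate block, and leaving out each library. Protein sequences were not used here.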

Additional observations from a re-analysis of the deposited data

How the results depend on the processing

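The median log2 fold change of the mitotic kinesins moved by less than the spread between replicates under every alternative tried. That of the transport kinesins lay near 0 in PCa against PIN, at -0.0158, and turned to 0.0905 without PIN 1, with a range of -0.0571 to 0.0905 without 1 library. In PCa against WT it was -0.168 with the replicate block and -0.331 to -0.216 without 1 library, and in PIN against WT -0.0544 with limma-trend and -0.228 to -0.00207 without 1 library. In PCa against WT, 13 members were called, 8 with the replicate block and 4 in a model of only the 2 groups. Without 1 WT or PIN library, 8 to 14 were called. Of all tested genes, 4.35% were called higher in the main setting, 1.44% with the block and 0.491% with only the 2 groups. The share was 4.04% with upper-quartile normalization and 1.03% to 2.99% without 1 WT or PIN library. Of the mitotic kinesins 11 were called, 4 with only the 2 groups and 7 to 11 without 1 library. Of the other kinesins outside both main classes 2 were called, 1 with upper-quartile normalization, 0 with only the 2 groups, 0 with the replicate block and 0 to 3 without 1 library. In PCa against PIN, 9 members were called, 5 without the filter, 3 with only the 2 groups and 0 with the replicate block. Without 1 WT or PIN library, 0 to 13 were called. Of all tested genes, 2.55% were called higher in the main setting, 1.24% without the filter, 1.14% with only the 2 groups and 0.2% with the block. The share was 2.11% with upper-quartile normalization, 6.84% with DESeq2 and 0.05% to 3.43% without 1 WT or PIN library. Of the mitotic kinesins 8 were called, 5 with upper-quartile normalization, 4 without the filter, 1 with only the 2 groups (*Kif15*, not among the 8), 0 with the replicate block and 0 to 10 without 1 library. Of the other kinesins 1 was called, 2 with DESeq2, 2 with only the 2 groups, 0 with the replicate block and 0 to 3 without 1 library. Transport kinesins called without 1 library numbered 0 to 1 in both comparisons with PCa. In PIN against WT the count was 0 in every alternative. *Kif26b* lost both calls with the replicate block. *Kif9* in PCa against WT ran from -2.14 without PCa 1, where the direction turned, to 1.17 without PCa 2. Models of only the 2 groups and those without a library have fewer samples, and otherwise the cause was not tested.

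No source ties equal replicate numbers to a shared animal or day, and the libraries share only a number. The correlation of same-numbered deviations was -0.0562 to 0.284, and 5 of 8 libraries lay nearest to one of their own number. The replicate block is therefore no paired analysis, and a call lost under it is no weaker effect. With 2 PCa libraries, a member found in 1 tumor cannot be told from a tumor that stands apart.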
